A study of Mus musculus with 4 samples.

Results

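The genes described here encode the subunits of the mitochondrial respiratory chain that are made in the nucleus, together with the assembly factors whose symbols share the same stem. They were taken by symbol: every mouse gene starting with Nduf, Uqcr or Atp5, every gene named Cox4 to Cox8 followed by a letter, and Cyc1. This gave 91 of the 24422 named genes: 39 with complex I symbols, 8 assembly factors of complex I, 9 genes of complex III, 18 of complex IV and 17 of complex V. The rule uses symbols alone, but it was chosen with earlier results of these data known. Of the 91 genes, 85 had enough counts to be tested, and the 6 others were Cox4i2, Cox6b2, Cox7b2, Cox8b, Cox8c and Ndufa4l2. The complex I symbols include a processed copy, Ndufs5-ps, which resembles Ndufs5 closely enough that reads of the pair may be shared, and Ndufa4, which is now usually placed in complex IV. Chain subunits made from mitochondrial DNA were not analysed here.

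RAW 264.7 cells, a mouse macrophage line, stably carried either the empty plasmid pcDNA 3.1(+) or this plasmid with Dnm3os, a long noncoding RNA, and poly(A) RNA was sequenced from 2 libraries of each. The line was grown at 5.5 mmol/L glucose and used between passages 3 and 6. The labels do not say how many clones a line held or whether separate cultures were sequenced, so p-values measure the spread between these libraries, which may be technical. Dnm3os itself was counted 208 and 260 times in the libraries labelled Dnm3os and 0 times in both others. Taking 3 counts as the limit of detection for the empty vector group as a whole, which covers counting error only, it was at least 184-fold higher (adjusted p = 2.99e-14 by edgeR). In such bulk RNA, fewer cells using a gene and less RNA of it per cell cannot be told apart. All 8 macrophage markers were present, with a summed level of 9778 to 9989 CPM (counts scaled to the size of each library) in empty vector and 10670 to 11170 CPM in Dnm3os libraries. Of the markers of other cells, the fibroblast, epithelial and lymphocyte lists summed to at most 0.0757 CPM in any library, and 3 of 5, 2 of 4 and 4 of 5 of their genes were at 0 throughout. The neuronal list summed to 0.546 to 0.848 CPM, with 2 of 4 genes at 0. The striated muscle list summed to 48.8 to 54.7 CPM, nearly all of it from the actin gene Acta1, which resembles the cytoplasmic actin genes, and the ranges of the groups overlapped. The 45S ribosomal RNA took 0.044 to 0.079% of the counts in empty vector and 0.057 to 0.081% in Dnm3os libraries.

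The respiratory chain sits in the inner mitochondrial membrane. Complex I takes electrons from NADH, complex III passes them from ubiquinol to cytochrome c, and complex IV hands them to oxygen; all of these pump protons, and complex V, the ATP synthase, makes ATP as protons flow back. Most subunits are encoded in the nucleus and imported, while some come from mitochondrial DNA. In macrophages the balance between this chain and glycolysis is known to shift with activation.

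Respiratory chain genes were slightly higher in the cells carrying Dnm3os. With edgeR (quasi-likelihood F test, Benjamini-Hochberg adjusted p under 0.05 over 13136 genes), 25 of the 85 tested genes were higher, 0 were lower and 60 were not called, where 6.48% of all genes tested were called higher and 5.77% lower. Before adjustment, 1 gene, Ndufb3, was lower by edgeR at a p under 0.05; limma-voom and DESeq2 called 0 lower. The median log2 fold change was 0.09 over the 85 genes, a level 6.64% higher, against 0.00 over all genes tested. The changes of the 25 called genes ran from 6.44 to 31.9%. Highly counted genes are called more readily, and 78 of the tested respiratory genes had a mean of at least 20 CPM; all 25 calls were among them, where 7.01% of all genes above that level were called higher.

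The direction was shared more widely than the calls. Of the 85 genes, 78 had a fold change above 0, and this count was 73 to 79 under all alternatives that tested 85 genes. The CPM of both Dnm3os libraries lay above both empty vector libraries for 60 of the 85 and below both for 1. Of all 13136 genes tested, 3439 (26.2%) were higher without overlap and 3286 were lower. The summed CPM of the 85 genes was 9507 and 9463 with the empty vector and 10110 and 10200 with Dnm3os, values that do not overlap. With Dnm3os library 1 left out 11 genes were called, and with Dnm3os library 2 left out 10. Over all genes, the 851 higher calls became 488 and 434 in these fits, while the median fold change of the respiratory genes was 0.09 and 0.10. DESeq2 called 11 genes higher, all of them among the 25. The genes called under all 14 alternatives, each library left out in turn included, were Uqcrfs1, Cox5b, Cox8a, Atp5o, Atp5md and Atp5g3.

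**Figure D1:**
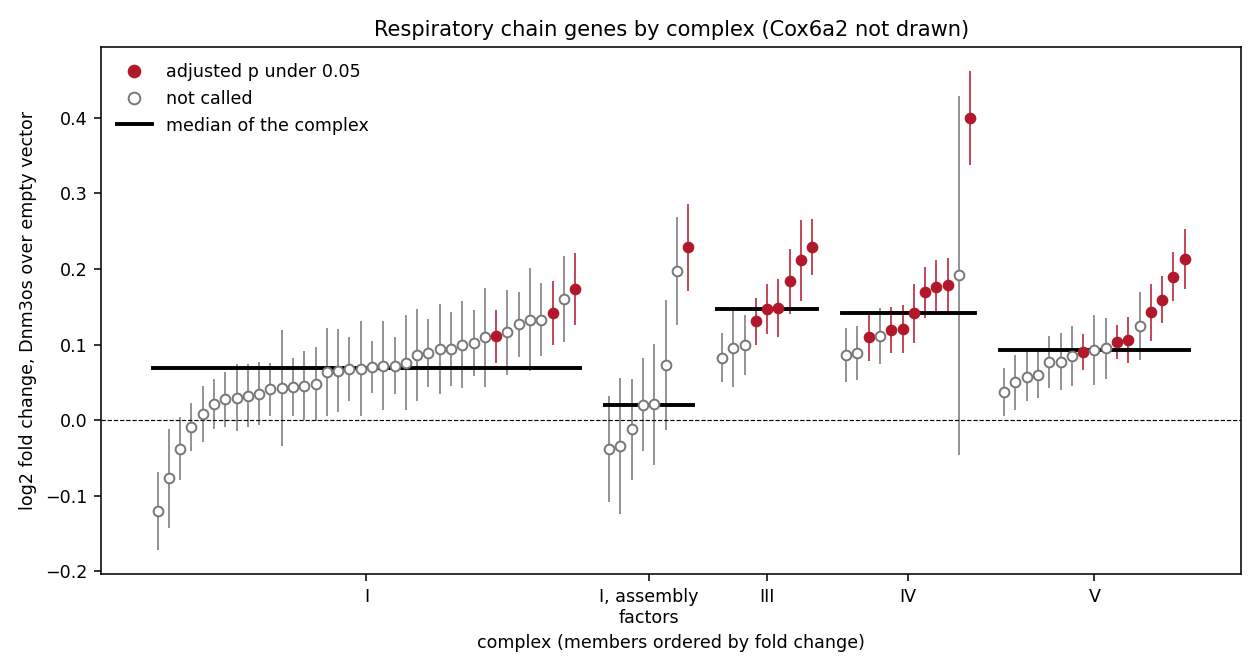
Log2 fold change (vertical axis, bars are the SE of the edgeR fit) of each tested gene, grouped by complex along the horizontal axis. Filled points passed an adjusted p of 0.05, black lines are medians; all genes of complexes III, IV and V sit above 0, and Cox6a2 (1.13, low counts) is not drawn.

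The complexes differed in how many of their genes were called. Over all genes tested, 6.48% were called higher and 5.77% lower. Complex I had 3 of 38 tested genes higher, complex III 6 of 9, complex IV 8 of 13 and complex V 7 of 17, with none lower in any. Their median log2 fold changes were 0.07, 0.15, 0.14 and 0.09 in the same order. All tested genes of complexes III, IV and V had fold changes above 0, also under each alternative scaling, against 34 of 38 in complex I. These are descriptions: the difference between complexes was not tested. Summed over the genes of a complex, complex III had 1029 and 1010 CPM in the empty vector and 1111 and 1129 CPM in the Dnm3os libraries. Complex IV had 1318 and 1307 against 1449 and 1459 CPM, complex V 4628 and 4606 against 4912 and 4973 CPM, and complex I 2374 and 2381 against 2466 and 2471 CPM. In each of these sums both Dnm3os libraries lay above both empty vector libraries.

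**Figure D2:**
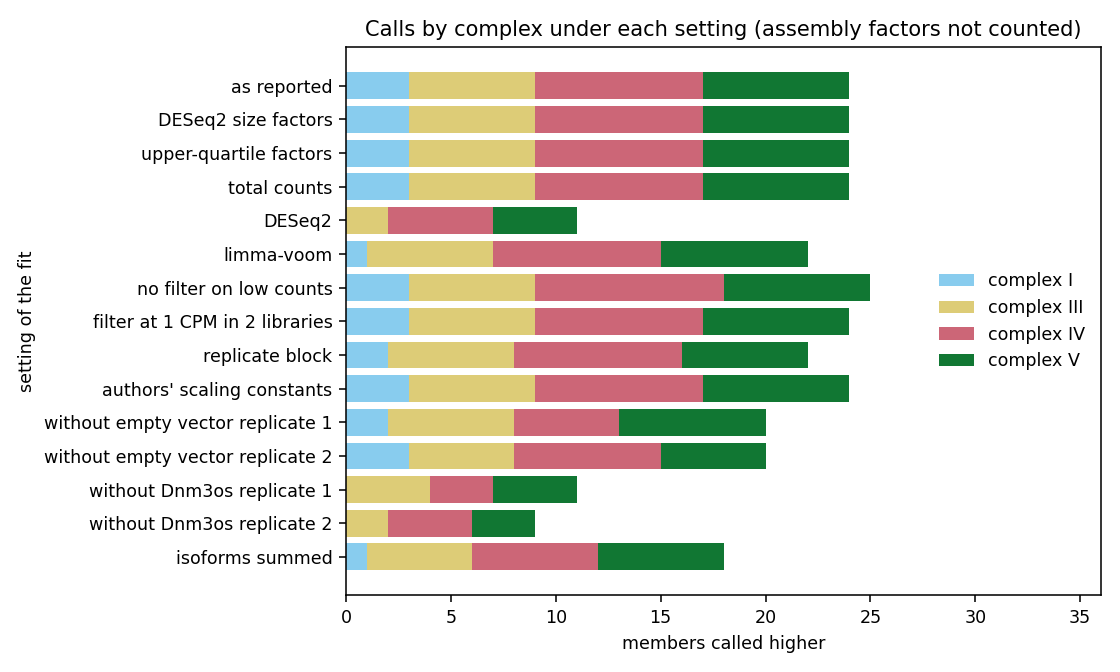
Number of genes called higher in each complex (bar segments, horizontal axis) under each setting of the fit (vertical axis). The 24 calls in complexes I, III, IV and V became 11 when Dnm3os library 1 was left out and 9 when Dnm3os library 2 was, and 0 of those were in complex I; assembly factors are not counted.

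Complex III carries electrons from ubiquinol to cytochrome c through a Rieske iron-sulphur protein and the heme proteins cytochrome b and cytochrome c1. Uqcrfs1, the Rieske protein, had 77.5 and 76.5 CPM in empty vector libraries 1 and 2, and 90.1 and 90.4 CPM in Dnm3os libraries 1 and 2. The groups were far apart relative to the spread within them. The log2 fold change was 0.23 ± 0.04 (SE, n = 2 per group; adjusted p = 0.000134 by edgeR), and it was called under all 14 alternatives. Cyc1, the cytochrome c1 heme protein, had 160.6 and 147.8 CPM against 167.4 and 174.5 CPM. The empty vector libraries of Cyc1 lay further apart than the Dnm3os libraries (0.15 ± 0.04; adjusted p = 0.0145 by edgeR). Uqcrc1, one of the large core proteins, had 233.5 and 230.9 CPM against 250.6 and 257.7 CPM (0.13 ± 0.03; adjusted p = 0.00655 by edgeR).

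The small subunits of complex III had fold changes of similar size. Uqcrh, the hinge protein beside cytochrome c1, had 120.6 and 117.1 CPM in the empty vector libraries and 133.3 and 130 CPM in the Dnm3os libraries (0.15 ± 0.03; adjusted p = 0.00417 by edgeR). Uqcrq, which lies close to cytochrome b, had 56.0 and 54.7 CPM against 62.5 and 63.2 CPM (0.18 ± 0.04; adjusted p = 0.00552 by edgeR). Uqcr10, a small membrane subunit, had 41.3 and 38.2 CPM against 46.4 and 45.7 CPM (0.21 ± 0.05; adjusted p = 0.00931 by edgeR). In all 9 genes of the complex both Dnm3os libraries lay above both empty vector libraries, beside 26.2% of all genes tested. The second core protein Uqcrc2 (0.08 ± 0.03), Uqcrb (0.10 ± 0.04) and Uqcr11 (0.10 ± 0.05) did not pass the threshold (adjusted p = 0.111, 0.114 and 0.289 by edgeR).

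Several of these calls were lost when a library was left out, with fold changes that stayed above 0: Uqcr10 had 0.20 in the fit lacking Dnm3os library 1, and 0.22 in the fit lacking Dnm3os library 2, where Uqcrq had 0.17. Without Dnm3os library 2, 2 of the 9 genes were called, and Uqcrc1 (adjusted p = 0.128 by edgeR), Uqcrq (0.0904), Uqcr10 (0.0836) and Cyc1 (0.231) were not. Without Dnm3os library 1, Uqcrh (0.106) and Uqcr10 (0.0847) were lost, and without empty vector library 2, Uqcr10 (0.0903) and Cyc1 (0.141).

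Complex IV, cytochrome c oxidase, holds its catalytic metal centres in subunits made from mitochondrial DNA, and the nuclear genes listed here encode the smaller subunits around them. Cox8a, the ubiquitous form of subunit VIII, had 90.01 and 82.97 CPM in empty vector libraries 1 and 2, and 107.3 and 120.7 CPM in Dnm3os libraries 1 and 2. It had the largest change of any called respiratory gene, 31.9% higher, and also a wide spread within each group (0.40 ± 0.06; adjusted p = 0.00479 by edgeR). Leaving out each library in turn, its log2 fold change ran from 0.31 to 0.48 and it was called each time. Cox5b, a zinc-binding subunit, had 88.02 and 88.73 CPM against 99.6 and 100.3 CPM (0.18 ± 0.04; adjusted p = 0.00136 by edgeR). Its libraries were close together within each group, and it was called under all 14 alternatives.

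Cox6a1, the ubiquitous form of a subunit at the dimer face, had 114.4 and 112.2 CPM in empty vector and 125.6 and 129.1 CPM in Dnm3os libraries (0.17 ± 0.03; adjusted p = 0.00117 by edgeR). Cox7c, a small membrane subunit, had 95.8 and 95.1 CPM against 109.6 and 106.2 CPM (0.18 ± 0.04; adjusted p = 0.00137 by edgeR). Cox6b1, which faces the intermembrane space near cytochrome c, had 143.8 and 144.4 CPM against 156.7 and 156.3 CPM (0.12 ± 0.03; adjusted p = 0.0107 by edgeR). Cox4i1, the ubiquitous regulatory subunit IV and the gene of this complex with the highest CPM, had 257.9 and 249.4 CPM against 274.4 and 277.1 CPM (0.12 ± 0.03; adjusted p = 0.0122 by edgeR). Cox6c (0.14 ± 0.04) and Cox5a (0.11 ± 0.03) were also called. In all 13 tested genes both Dnm3os libraries lay above both empty vector libraries. Among all genes tested, 26.2% were higher without overlap.

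Those not called included Cox7b at 0.11 ± 0.04, Cox7a2l, a factor known for joining complexes III and IV into supercomplexes, at 0.09 ± 0.04, and Cox7a2 at 0.09 ± 0.04 (adjusted p = 0.0536, 0.127 and 0.136 by edgeR). With empty vector library 1 left out complex IV had 5 genes called; leaving out Dnm3os library 1 gave 3 and Dnm3os library 2 gave 4. Cox6a1 was lost without Dnm3os library 2 (adjusted p = 0.0588 by edgeR), Cox7c without Dnm3os library 1 (0.0613), and Cox6b1 without Dnm3os library 1 (0.112), Dnm3os library 2 (0.0991) or empty vector library 1 (0.0788). Cox4i1 was lost without Dnm3os library 1 (0.0762), Dnm3os library 2 (0.134) or empty vector library 2 (0.107). Cox5a and Cox6c were lost without empty vector library 1 (0.184 and 0.0691), Dnm3os library 1 (0.135 and 0.0540) or Dnm3os library 2 (0.153 and 0.212).

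**Figure D3:**
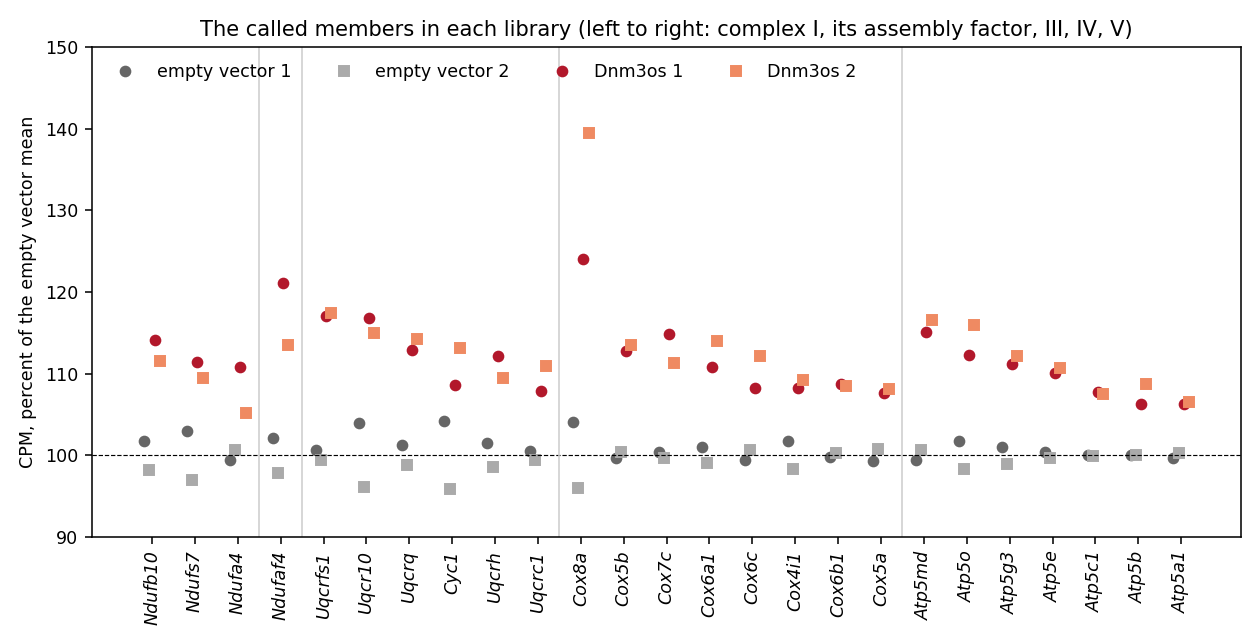
CPM of the 25 called genes in each library (vertical axis, percent of the mean of the empty vector libraries), ordered by complex. The Dnm3os libraries lie above both empty vector libraries for every gene drawn, and Cox8a stands highest with Dnm3os library 2.

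Several subunits of complex IV exist in a ubiquitous form and in forms known from muscle, testis or lung. The cells used the ubiquitous forms in both groups. Cox7a1, the heart and skeletal muscle form, had 46 and 48 counts against 44 and 47, or 1.16 to 1.5 CPM, beside 95.8 to 103.6 CPM for Cox7a2. Cox6a2, the muscle form of subunit VIa, had 13 and 8 counts against 26 and 13. Dnm3os library 1 stood apart in this gene, and its change was not called (1.13 ± 0.46; adjusted p = 0.130 by edgeR), with a log2 fold change of 0.44 without Dnm3os library 1 and 1.65 without Dnm3os library 2. Cox4i2, the oxygen-regulated form of subunit IV, had 0 and 2 counts against 0 and 5. Cox8b had 2 counts in empty vector library 1 and 0 elsewhere, and Cox6b2, Cox7b2 and Cox8c had 0 in all libraries, which allows up to 3 counts per library. Ndufa4l2, a hypoxia-induced relative of Ndufa4, had 1 and 6 counts against 2 and 0. No switch from one form to another was detectable at this depth.

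**Figure D4:**
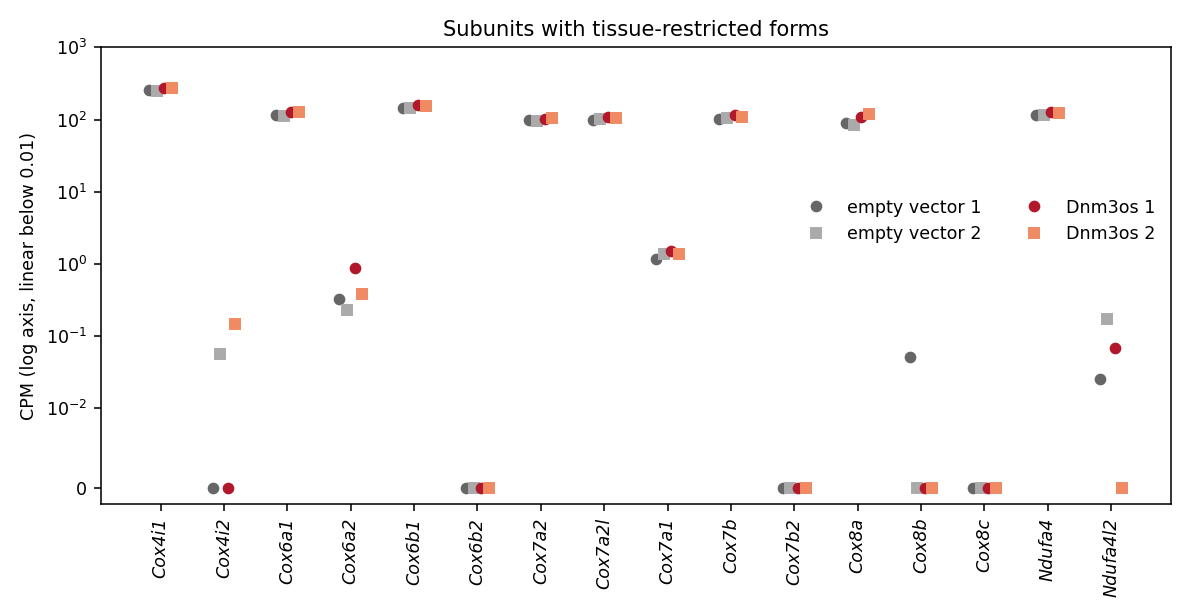
CPM (vertical axis, logarithmic above 0.01 and linear below) of subunits that have tissue-restricted forms, one point per library. The ubiquitous forms lie between 83.0 and 277 CPM, and the restricted forms at or below 1.5 CPM in every library.

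Complex V consists of the catalytic F1 part in the matrix and a membrane part with a rotating ring of c subunits, held together by a stalk. The F1 genes include Atp5b, the catalytic beta subunit, with 1462 and 1461 CPM in empty vector libraries 1 and 2, and 1552 and 1588 CPM in Dnm3os libraries 1 and 2. It had the highest CPM of all the respiratory genes, also per length of transcript, with means of 763 CPM per kilobase in the empty vector and 819 in the Dnm3os group (0.10 ± 0.02; adjusted p = 0.00314 by edgeR). Its neighbour in F1, the alpha subunit Atp5a1 (0.09 ± 0.02), the gamma subunit Atp5c1 (0.11 ± 0.03) and the epsilon subunit Atp5e (0.14 ± 0.04) were called as well. Atp5e had 78.3 and 77.7 CPM against 85.9 and 86.3 CPM (adjusted p = 0.0136 by edgeR). The delta subunit Atp5d had 139.7 and 131.5 against 138.1 and 148.1 CPM, overlapped between the groups and was not called.

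Among the other subunits of complex V, Atp5o, the oligomycin-sensitivity protein that joins F1 to the stalk, had 158.7 and 153.2 CPM in the empty vector and 175.0 and 180.7 CPM in the Dnm3os libraries (0.19 ± 0.03; adjusted p = 0.000225 by edgeR). Atp5md, a small subunit of the membrane part, had 65.2 and 66.0 CPM against 75.5 and 76.5 CPM (0.21 ± 0.04; adjusted p = 0.000606 by edgeR). The groups of both genes were far apart, and both were called under all 14 alternatives. Of the 12 genes outside F1, 3 were called higher, where 6.48% of all genes tested were. The 9 others, among them the stalk subunits Atp5pb (0.06 ± 0.03) and Atp5h (0.08 ± 0.03), were not called.

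The ring subunit c is encoded by a trio of genes whose mature proteins are the same, so that they differ in the import sequence and in regulation. Atp5g3 had 252.6 and 247.3 CPM in empty vector libraries 1 and 2, and 277.9 and 280.4 CPM in Dnm3os libraries 1 and 2 (0.16 ± 0.03; adjusted p = 0.000901 by edgeR). Atp5g1 had 167.8 and 162.1 CPM against 168.6 and 174.7 CPM (0.06 ± 0.03; adjusted p = 0.317 by edgeR). Atp5g2 had 176.1 and 173.5 CPM against 181.8 and 177.2 CPM (0.04 ± 0.03; adjusted p = 0.550 by edgeR). Atp5g3 was called under all 14 alternatives and the other two under none, and the difference between the fold changes of these genes was not tested. Per kilobase of transcript, the empty vector means were 346 CPM for Atp5g3, 277 for Atp5g1 and 239 for Atp5g2. Atpif1, the inhibitor protein of the ATP synthase, which falls outside the symbol rule, had 174.0 and 172.5 CPM against 169.6 and 174.6 CPM, with overlapping groups (-0.01 ± 0.03; adjusted p = 0.913 by edgeR).

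Complex V had 4 genes called without Dnm3os library 1 and 3 without Dnm3os library 2. Atp5b was lost without Dnm3os library 2 (adjusted p = 0.131 by edgeR). Atp5e was lost without Dnm3os library 1 (0.0955), Dnm3os library 2 (0.118) or empty vector library 2 (0.0512). Atp5a1 was lost without Dnm3os library 1 (0.146), Dnm3os library 2 (0.143) or empty vector library 1 (0.132), and Atp5c1 with any of the 4 libraries left out (0.068 to 0.149).

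Complex I, the NADH dehydrogenase, is the largest complex of the chain. Of its 38 tested genes 3 were called higher, a share near the 6.48% of all genes. Ndufb10, an accessory subunit of the membrane arm, had 46.1 and 44.5 CPM in the empty vector and 51.7 and 50.5 CPM in the Dnm3os libraries (0.17 ± 0.05; adjusted p = 0.0182 by edgeR). Ndufs7, a core subunit that holds the last iron-sulphur cluster before ubiquinone, had 69.7 and 65.6 CPM against 75.3 and 74.0 CPM (0.14 ± 0.04; adjusted p = 0.0270 by edgeR). Ndufa4 had 114.9 and 116.3 CPM against 128.1 and 121.6 CPM (0.11 ± 0.03; adjusted p = 0.0392 by edgeR). None of these calls was made without Dnm3os library 1 or without Dnm3os library 2, nor by DESeq2. Without Dnm3os library 1 their adjusted p-values were 0.129 for Ndufb10, 0.196 for Ndufs7 and 0.421 for Ndufa4, and without Dnm3os library 2 they were 0.0966, 0.133 and 0.0559 (edgeR). Ndufb10 (0.0968) and Ndufs7 (0.263) were also lost without empty vector library 2, and Ndufa4 without empty vector library 1 (0.146).

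The core subunits of complex I made in the nucleus include those that carry its flavin and iron-sulphur clusters or line the quinone site. The 7 made in the nucleus had a median log2 fold change of 0.035, and Ndufs7 was the 1 called. For 2 of the 7 both Dnm3os libraries lay above both empty vector libraries, a share near the 26.2% of all genes tested. Ndufv1, the flavoprotein, had 93.3 and 92.1 CPM against 92.3 and 94.0 CPM (0.01 ± 0.04; adjusted p = 0.939 by edgeR). The 10 tested genes of the Ndufb series, accessory subunits of the membrane arm, had a median of 0.11. Of these 10, 1 passed the threshold, where 6.48% of all genes tested were called higher. For 9 of the 10 both Dnm3os libraries lay above both empty vector libraries, beside 26.2% of all genes tested. The exception, Ndufb3, had 47.3 and 45.3 CPM against 43.9 and 41.3 CPM and was not called (-0.12 ± 0.05; adjusted p = 0.157 by edgeR). The 14 tested genes of the Ndufa series had a median of 0.04. The differences between these series were not tested.

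Of the 8 assembly factors of complex I in the Ndufaf series, 1 was called higher, where 6.48% of all genes tested were. Ndufaf4 had 34.2 and 32.7 CPM in the empty vector and 40.5 and 38.0 CPM in the Dnm3os libraries (0.23 ± 0.06; adjusted p = 0.00867 by edgeR). The call was lost without Dnm3os library 1 (adjusted p = 0.148 by edgeR) and by DESeq2 (0.0847). Ndufaf3, its partner in an early step of assembly, had 16.0 and 16.2 CPM against 18.2 and 18.8 CPM and did not pass (0.20 ± 0.07; adjusted p = 0.0784 by edgeR). The 6 others lay between -0.04 and 0.07. Per kilobase of transcript, their empty vector means were 9.21 CPM for Ndufaf4 and at most 19.6 CPM for the others, beside 55.8 CPM for the core subunit Ndufv1.

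Promoters of respiratory genes are known for sites of NRF1, ETS-family factors such as GABP, YY1 and estrogen-related receptors. RefSeq promoters (GRCm38.p6, 250 bases before to 50 after the gene start) were found for 73 of the 91 genes, and each motif was searched on both strands. The NRF1 core GCGCATGCG was in 13.7% of the 73, beside 1.95% of all 27025 genes with a promoter in the table. The ETS core CCGGAAG was in 23.3%, beside 9.93%, the YY1 core AAGATGGCG in 11.0%, beside 1.64%, and the estrogen-related receptor site TCAAGGTCA in 1.37%, beside 0.466%. Of the genes with the motif, 3 of 10 for NRF1, 6 of 17 for ETS, 1 of 8 for YY1 and 1 of 1 for the estrogen-related receptor were called higher. Of all 85 tested respiratory genes, with or without a motif, 25 were called higher. Whether calls went with a motif was not tested. No set of promoters was tested, and a match is a stretch of letters, not a shown binding site.

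The stretches below come from called genes whose motif lies wholly upstream of the start, and capitals mark the motif and, where a match on the other strand overlaps it, both. Cox6a1 (chr5:115349082-115349150, minus strand) and Ndufaf4 (chr4:24897940-24898008, plus strand) hold the NRF1 core, which overlaps its own match on the other strand, 162 and 113 bases upstream. Uqcrh (chr4:116075071-116075110, minus strand) and a second stretch of Cox6a1 (chr5:115348959-115349004, minus strand) hold the ETS core on the other strand 10 and 16 bases upstream. Atp5g3 (chr2:73911340-73911408, minus strand) holds the estrogen-related receptor site on the other strand 52 bases upstream.
Cox6a1, NRF1: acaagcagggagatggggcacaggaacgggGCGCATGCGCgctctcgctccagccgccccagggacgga
Ndufaf4, NRF1: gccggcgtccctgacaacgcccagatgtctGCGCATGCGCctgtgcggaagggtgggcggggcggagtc
Cox6a1, ETS: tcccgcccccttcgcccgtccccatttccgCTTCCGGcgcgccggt
Uqcrh, ETS: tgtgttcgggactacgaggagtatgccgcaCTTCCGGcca
Atp5g3, estrogen-related receptor: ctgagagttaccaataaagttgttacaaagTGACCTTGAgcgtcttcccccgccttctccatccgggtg

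Genes that work beside the chain were described from lists. Their calls are set beside those of all genes tested, 6.48% higher and 5.77% lower. Of the 4 subunits of complex II, the succinate dehydrogenase, 2 rose, and all had fold changes above 0 (median 0.08). Sdhd, a membrane anchor, had 145.7 and 144.0 CPM in the empty vector and 168.6 and 158.9 CPM in the Dnm3os libraries (0.18 ± 0.03; adjusted p = 0.000680 by edgeR), and Sdha, the flavoprotein, had 246.4 and 243.8 CPM against 265.8 and 258.9 CPM (0.10 ± 0.03; adjusted p = 0.0424 by edgeR). Sdhd was lost without Dnm3os library 1 (0.0636), and Sdha with any of the 4 libraries left out (0.103 to 0.304), with the replicate number as a block (0.0927), with isoforms summed, with upper-quartile factors, by DESeq2 and by limma-voom. Cycs, the electron carrier cytochrome c, had 253.6 and 245.8 CPM against 274.7 and 268.5 CPM (0.12 ± 0.03; adjusted p = 0.0127 by edgeR). It was the 1 called gene of 14 in cytochrome c and coenzyme Q synthesis, a share near the 6.48% of all genes. The Cycs call was lost without Dnm3os library 1 (log2 fold change 0.10), Dnm3os library 2 (0.14) or empty vector library 2 (0.10).

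Assembly factors and the expression of mitochondrial DNA serve to build the chain. Of 32 assembly factors of complexes III and IV, 4 rose and 0 fell, where 6.48% of all genes were called higher and 5.77% lower. Their median was 0.03, and 1 was lower at an unadjusted p under 0.05 by edgeR. Among the alternatives that kept all 4 libraries, 1 was called lower with upper-quartile factors or with no filter on low counts. Those that rose were Coa5 (0.13 ± 0.04), Taco1, which activates translation of a mitochondrial oxidase subunit (0.30 ± 0.08), Higd2a (0.26 ± 0.08) and Ttc19 (0.24 ± 0.07, named after its value was seen). None of the 4 was called without Dnm3os library 1, without Dnm3os library 2 or by DESeq2. None of 10 further assembly factors of complex I, 5 of complex V and 14 genes of mitochondrial DNA expression was called in either direction by edgeR; at an unadjusted p under 0.05 these lists had 1, 1 and 0 genes higher and 0, 0 and 1 lower, DESeq2 and limma-voom called 0 higher, and their medians were 0.04, 0.09 and 0.02. Without empty vector library 1, 1 assembly factor of complex V was higher, and without empty vector library 2, 1 of complex I.

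The 78 mitochondrial ribosomal protein genes had a median of 0.04. At an unadjusted p under 0.05 by edgeR, 12 were higher and 2 lower. Of all 13136 genes tested, 3439 (26.2%) were higher without overlap of the groups and 3286 were lower. Among the 78, both Dnm3os libraries lay above both empty vector libraries for 33 and below both for 6. With no filter on low counts, 5 of this list rose and 1 fell after adjustment. With the main filter 3 rose and 0 fell, a share of higher calls below the 6.48% of all genes. They were Mrpl12 (0.11 ± 0.03), Mrps23 (0.15 ± 0.04) and Mrpl36 (0.20 ± 0.06), and 0 were higher by DESeq2, by limma-voom, without Dnm3os library 1, without Dnm3os library 2 or without empty vector library 2. Without Dnm3os library 1, 1 was lower. Of 22 genes of mitochondrial protein import 2 rose, Tomm5 (0.16 ± 0.04) and Timm9 (0.25 ± 0.06), with a median of 0.07, where 6.48% of all genes were called higher; 0 were called without Dnm3os library 1 and by DESeq2, and 1 without Dnm3os library 2 or empty vector library 2. Of 7 tested carriers and pore proteins Slc25a3, the phosphate carrier that feeds the ATP synthase, rose (0.11 ± 0.03; median 0.04), and was lost without Dnm3os library 1 (adjusted p = 0.197 by edgeR), Dnm3os library 2 (0.0513) or empty vector library 2 (0.0552).

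Among 18 tested regulators of respiratory genes 3 rose and 1 fell (median 0.03), where 6.48% of all genes were called higher and 5.77% lower. Ppargc1b, a coactivator known for driving mitochondrial genes in macrophages, had 5.66 and 5.40 CPM in the empty vector and 7.64 and 9.10 CPM in the Dnm3os libraries (0.60 ± 0.11; adjusted p = 0.000634 by edgeR), and was lost without Dnm3os library 2 (0.0601). Ppard, a nuclear receptor, had 8.93 and 7.10 CPM against 12.03 and 11.26 CPM (0.53 ± 0.10; adjusted p = 0.00114 by edgeR). Myc, a growth transcription factor, had 64.9 and 59.8 CPM against 74.1 and 71.6 CPM (0.22 ± 0.05; adjusted p = 0.00132 by edgeR). Both were called under all 14 alternatives. Sp1, a general activator, fell by 0.11 on the log2 scale, from 103.8 and 105.6 to 97.9 and 95.7 CPM (adjusted p = 0.0397 by edgeR), but no regulator was called lower by DESeq2, by limma-voom, with the replicate number as a block, with isoforms summed, or without Dnm3os library 1, Dnm3os library 2 or empty vector library 2.

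Respiratory genes have short and abundant transcripts, and the fold changes of all genes varied a little with length. Over all genes tested the median was 0.03 for the 1457 genes with transcripts under 1000 bases and 0.00 for the 11332 longer ones. The respiratory genes had medians of 0.10 (56 genes) and 0.09 (28 genes) in these classes, with 17 and 8 called. The cytosolic ribosomal protein genes, also short and abundant, had a median of 0.03, and 66 of 81 had fold changes above 0. Both Dnm3os libraries lay above both empty vector libraries for 42 of the 81 and below both for 1. Of all 13136 genes tested, 3439 (26.2%) were higher without overlap and 3286 were lower. Of these ribosomal genes 4 were called higher and 0 lower, a share of calls not above the 6.48% of all genes. Without Dnm3os library 1 0 of them were called, and without Dnm3os library 2 or empty vector library 2, 2; DESeq2 called 1. Whether length plays a part in the respiratory result was not tested further.

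**Figure D5:**
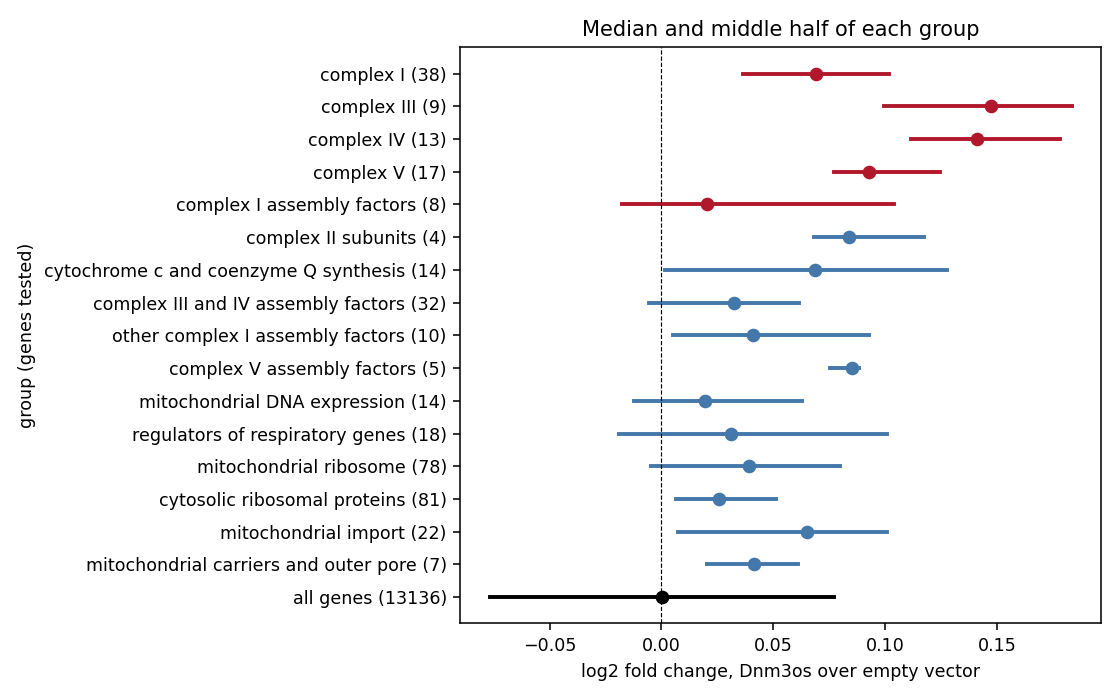
Median (point) and range from the lower to the upper quartile (line) of the log2 fold change (horizontal axis) in each group of genes, with the number tested in parentheses. Complexes III and IV have the highest medians, at 0.15 and 0.14, and all genes tested center on 0.00.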

How the data were processed

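Per the file headers, the deposited tables give a raw count and a normalized count of each of 35786 RefSeq transcripts in 4 libraries. The authors' normalized values are a scaled signal: the raw counts multiplied by 1 factor for each library (0.8653 to 1.1723), and served only as an alternative scaling. The submitters' processing notes name TopHat, Bowtie2, DESeq2 and mm9; which program counted reads, on which annotation and with which strand option, is not given in the sources used here. Symbols for 35499 transcripts came from RefSeq and for 178 from GENCODE; 109 unnamed ones, the 45S ribosomal RNA among them, held 0.246 to 0.276% of the counts. Each gene was represented by its transcript of highest mean count, and summing isoforms was an alternative. Totals were 48480628 to 65610942 over all transcripts and 29329201 to 39640782 over 1 per gene.

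Genes passing filterByExpr were scaled with TMM and tested with edgeR 4.0.16 (glmQLFit, robust; glmQLFTest) in R 4.3.3, with Benjamini-Hochberg adjustment over 13136 genes. The SE was derived from the log2 fold change and its F statistic. The procedure was tested on simulated data. Alternatives were other scalings, DESeq2 1.42.0, limma-voom (limma 3.58.1), other filters, a replicate block, isoforms summed and each library left out; when a group is left with 1 library, its variance is taken from the other group. Values per library were given for up to 5 called genes per complex by adjusted p, the gene with the highest CPM in complexes III, IV and V, the subunit c genes and the subunits with tissue-restricted forms; other genes were named after their values were seen, and 1 gene within the rule is not reported here. Members and lists were chosen with earlier results of these data known. Transcript lengths come from GENCODE M21. The same-numbered libraries carry no stated pairing.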

Additional observations from a re-analysis of the deposited data

How the results depend on the processing

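Median fold changes kept their direction under all 14 alternatives. With DESeq2 in place of edgeR, 398 genes were higher and 359 lower over all genes, 11 respiratory genes were higher, and complexes I, III, IV and V had 0, 2, 5 and 4 higher. Limma-voom and summed isoforms each left 1 gene of complex I. A filter at 1 CPM moved the median of complex IV to 0.13, since Cox6a2 was no longer tested. Leaving out each library in turn gave 434 to 802 genes higher and 372 to 784 lower over all genes, and 10 to 21 respiratory genes higher and 0 lower. For complexes I, III, IV and V these fits gave 0 to 3, 2 to 6, 3 to 7 and 3 to 7 higher, and medians of 0.059 to 0.0712, 0.1178 to 0.1641, 0.1269 to 0.1501 and 0.0894 to 0.1025; over all respiratory genes the median was 0.0866 to 0.1046. Atpif1 (-0.0308 to 0.0091), which was not called, had the higher value, above 0, without Dnm3os library 1. Causes were not tested. With the replicate number as a block, 23 respiratory genes were higher, and Atp5c1 (adjusted p = 0.0610) and Ndufa4 (0.0534) were not. Of the other genes named, Sdha (0.0927) was lost under the block, and no regulator was called lower; the deviations of same-numbered libraries correlated at -0.209 over 9957 genes, and the numbers share no stated batch. At 2 libraries per group, differences of a few percent lie near the limit of what can be called.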
